A study of Mus musculus with 60 samples.

Results

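The genes described here were 33 genes of microglia and of the complement system, listed by symbol and grouped by role. All 33 were found among the 46480 genes of the RNA-Seq count tables, and all 33 passed the count filter that left 17040 genes for testing. The tissue was dentate gyrus (DG), the hippocampal field where adult mice make new granule neurons, punched from frozen slices at its dorsal and ventral poles. Male C57BL6J mice, weaned at postnatal day 22, were then kept for 8 weeks in standard housing (SH), in small cages, or in an enriched environment (EE), in a large group cage with running wheels and changing toys. They were killed at 80 days of age, and the labels give no other treatment. Each sample was tissue pooled from several mice, and the study joined dorsal and ventral samples of the same mice. Samples of both poles with one replicate number within a housing were taken as one pool, which the sample titles do not state. Values are over 4 SH and 5 EE pools, each with both poles, or 18 samples with 22919364 to 28301861 counted fragments each. SH replicate 3 was left out in both regions. The study excluded an SH sample for expression of a female-specific RNA, without giving its number.

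Microglia are the resident macrophages of the brain. They are kept alive by signaling through the CSF1 receptor, sense nucleotides released by other cells through P2Y receptors, and receive a restraining signal from neurons through the fractalkine receptor. Complement begins with C1q, a protein built from the chains A, B and C that binds targets such as synapses and dying cells, and continues through C4 and C3, whose fragments bind receptors on microglia. Microglia make the C1q chains of the brain, whereas astrocytes and other cells also make C4.

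The transcripts of microglia were present in every sample. TPM, a level scaled for transcript length and library total, was used wherever one gene is compared with another. The median TPM over 18 samples was 28.7 for C1qa, 24.3 for Ctss (the lysosomal protease cathepsin S), 21.4 for C1qb, 18.1 for C1qc and 17.1 for Tyrobp. It was 14.0 for P2ry12, 12.1 for Csf1r, 8.13 for Cx3cr1 and 5.75 for Tmem119, all genes that mark microglia in healthy brain. At the low end were C3, with a median TPM of 0.085, and C3ar1, which encodes the receptor for a C3 fragment, with 0.22. TPM was above 1 in at least 3 samples for 26 of the 33 members. The others were P2ry6, C3, C3ar1, Ptprc, Irf8, Cd14 and Mrc1. Counts for C3 were as low as 8 fragments in a sample, so its changes are measured with little precision. Levels below are CPM, counts scaled to a common library total after TMM, and are compared only within a gene. In bulk tissue, fewer cells of a type and less RNA per cell cannot be told apart.

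Promoters are shown for 4 members: C1qb and C1qc, neighbours on chromosome 4 that encode chains of the same protein, and P2ry12 and Siglech, which carried called differences. The 250 bases before the RefSeq start (GRCm38.p6) lie at chr4:136886201-136886450 on the minus strand for C1qb and at chr4:136892915-136893164 on the minus strand for C1qc. They lie at chr3:59262986-59263235 on the minus strand for P2ry12 and at chr7:55767934-55768183 on the plus strand for Siglech. Capitals mark GAGGAA, letters that PU.1 (the product of Spi1, a factor that microglia need) can bind, read on either strand. Other letters that PU.1 may bind were not marked.
C1qb: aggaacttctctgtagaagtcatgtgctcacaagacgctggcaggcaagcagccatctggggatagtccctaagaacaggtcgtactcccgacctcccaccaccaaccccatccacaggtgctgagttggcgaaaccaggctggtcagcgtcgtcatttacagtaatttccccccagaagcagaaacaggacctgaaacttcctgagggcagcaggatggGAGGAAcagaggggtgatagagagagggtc
C1qc: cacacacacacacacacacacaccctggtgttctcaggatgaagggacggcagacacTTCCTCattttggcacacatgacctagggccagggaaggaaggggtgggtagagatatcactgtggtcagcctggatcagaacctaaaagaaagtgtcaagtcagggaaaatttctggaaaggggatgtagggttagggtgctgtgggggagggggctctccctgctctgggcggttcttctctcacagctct
P2ry12: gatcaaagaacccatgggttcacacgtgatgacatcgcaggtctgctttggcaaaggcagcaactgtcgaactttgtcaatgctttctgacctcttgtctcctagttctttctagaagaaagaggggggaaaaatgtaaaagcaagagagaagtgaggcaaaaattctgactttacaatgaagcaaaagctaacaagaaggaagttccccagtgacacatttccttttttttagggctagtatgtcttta
Siglech: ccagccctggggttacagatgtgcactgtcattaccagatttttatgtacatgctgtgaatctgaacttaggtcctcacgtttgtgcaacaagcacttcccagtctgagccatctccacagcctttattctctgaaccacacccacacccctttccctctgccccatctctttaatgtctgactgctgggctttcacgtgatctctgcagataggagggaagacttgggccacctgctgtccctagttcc
The C1qb and C1qc windows each held 1 match, and the P2ry12 and Siglech windows held none.

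RefSeq windows were matched for 22 members (25 windows, as some genes have more than 1 start). GAGGAA was in 15 of these 25 windows, and in 23.3% of the 32851 windows of the same length over all genes. The longer form GAGGAAGT, which contains the shorter one, was in 1 of the 25 and in 2.44% of all windows. By gene, 14 of the 22 members had a match, among them C1qb, C1qc, Ctss, Trem2, Aif1, Itgam and Mrc1. Cx3cr1, P2ry12, Fcer1g, Siglech, Olfml3, C3, C3ar1 and Irf8 had none in this window. The members with no window matched were P2ry6, Tmem119, Csf1r, Tyrobp, Gpr34, Selplg, C1qa, C4b, Spi1, Cd14 and Cd83. A match describes letters and is not a measured binding site.

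The first comparison asked whether these genes differ between the poles of the DG. Between dorsal and ventral DG, 5 of the 33 members passed FDR 0.05: Cd83 was higher in dorsal DG, and Tyrobp, C4b, Siglech and Gpr34 were higher in ventral DG. Over all tested genes 52.3% passed the same test (25.9% higher in dorsal and 26.3% in ventral DG), so the share among the members was below the background. The test is the edgeR quasi-likelihood F test of the SH and EE differences together, adjusted by the Benjamini-Hochberg method over all genes, and the log2 fold change is the mean dorsal minus ventral difference. The median log2 fold change was -0.09 for the members and -0.00 for all genes. The estimate was below 0 (ventral higher) for 24 of 33 members and for 50.8% of all genes. The 95% interval lay within 0.263 of 0 on the log2 scale (a 20% rise or the matching fall) for 18 of the 33. It did so for 35.9% of all genes. These directions depend on the scaling. Deposited TPM moved the median of all genes to 0.16 (dorsal higher), and 3 members were then below 0, with Siglech and Gpr34 at 0.02. Tyrobp was then at -0.11, C4b at -0.05 and Cd83 at 0.61. With each sample's TPM centred on its median gene, 24 of 33 were below 0 again, with a median of -0.02 for all genes. Siglech and Gpr34 were then both at -0.16, Tyrobp at -0.29, C4b at -0.23 and Cd83 at 0.43.

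**Figure D1:**
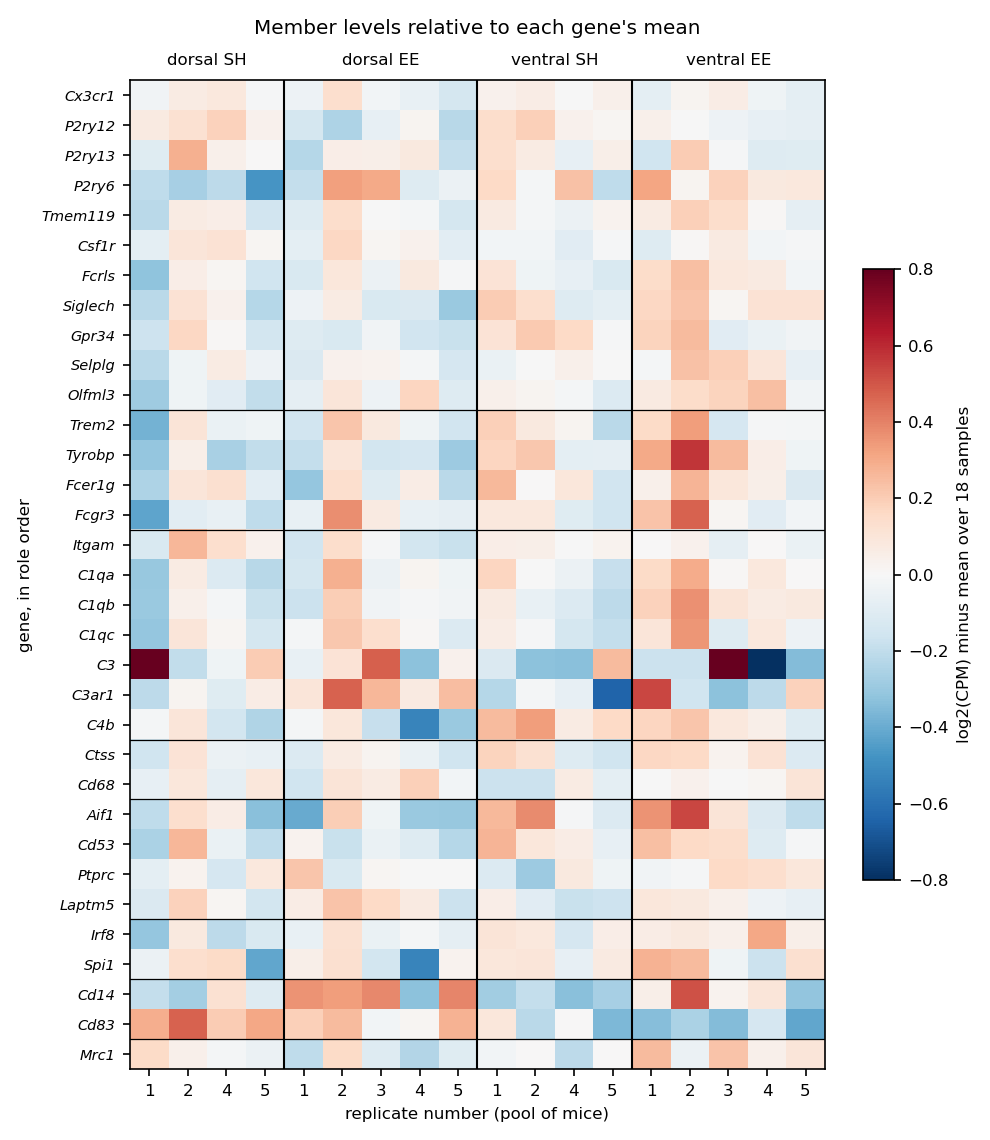
Levels of the 33 members (rows, in role order) in each of 18 samples (columns, by group and replicate number), as log2 CPM minus the gene's mean, with color capped at 0.8 in either direction. Cd83 is above its mean in most dorsal samples and below it in most ventral ones, and many rows are darkest red in replicate 2 of a group, such as Tyrobp in ventral EE.

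Cd83 encodes a surface glycoprotein of activated antigen-presenting cells and lies at chromosome 13, 43784775 to 43803132 (GRCm38, plus strand). In dorsal SH replicates 1, 2, 4 and 5 its level was 28.5, 32.3, 26.7 and 28.8 CPM, and in the ventral samples of the same pools it was 24.7, 20.02, 23.3 and 18.1 CPM. In dorsal EE replicates 1 to 5 it was 26.5, 27.7, 22.9, 23.5 and 28.2 CPM, against 18.4, 19.5, 18.3, 21.1 and 17.4 CPM in ventral EE. Dorsal was above ventral in 9 of 9 pools, and within each housing the poles did not overlap. The log2 fold change was 0.44 ± 0.060 (SE; 95% interval 0.31 to 0.56; edgeR quasi-likelihood, adjusted p = 8.58e-06), a 35.5% higher level in dorsal DG. It was 0.43 within SH (adjusted p = 0.000502, edgeR) and 0.45 within EE (adjusted p = 0.000114, edgeR). Cd14, the other innate activation gene and a co-receptor for bacterial lipopolysaccharide, did not pass, at 0.16 ± 0.12.

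Tyrobp encodes DAP12, the adaptor through which TREM2 and related receptors signal, and lies at chromosome 7, 30413760 to 30417585 (plus strand). Its dorsal level was 14.1, 18.1, 14.6 and 15.2 CPM in SH replicates 1, 2, 4 and 5 and 15.3, 18.7, 15.8, 15.9 and 14.3 CPM in EE replicates 1 to 5. In ventral DG it was 19.7, 20.3, 16.6 and 16.7 CPM in SH and 21.5, 25.9, 20.8, 18.2 and 17.0 CPM in EE. Ventral was higher in 9 of 9 pools, although the ranges of the poles overlapped through replicate 2, the highest in dorsal DG in both housings. The log2 fold change was -0.31 ± 0.075 (SE; 95% interval -0.46 to -0.15; edgeR quasi-likelihood, adjusted p = 0.00326), a 23.7% higher level in ventral DG. The members of related signaling did not pass. Trem2 stood at -0.09 ± 0.075, Fcgr3 (an immunoglobulin receptor) at -0.12 ± 0.078 and Fcer1g (an adaptor like Tyrobp) at -0.12 ± 0.079. The ratio of Tyrobp to Trem2 TPM was at the dorsal pole 3.33 ± 0.276 (SD, n = 4) with SH and 3.21 ± 0.245 (n = 5) with EE, and at the ventral pole 3.68 ± 0.336 (n = 4) with SH and 3.98 ± 0.527 (n = 5) with EE. No test was made of this ratio.

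Among the 7 complement members only C4b passed. It encodes the C4 protein that C1q's proteases cleave and lies at chromosome 17, 34728380 to 34743882 (minus strand), beside the near-identical C4a, so reads may be split or shared between the copies. C4b was at 30.6, 33.2, 28.0 and 26.2 CPM in dorsal SH and at 36.8, 39.1, 32.3 and 34.6 CPM in ventral SH (replicates 1, 2, 4 and 5). In EE replicates 1 to 5 it was at 30.6, 32.9, 27.3, 21.4 and 25.2 CPM in dorsal DG and at 34.8, 36.1, 32.8, 32.0 and 28.8 CPM in ventral DG. Ventral was higher in 9 of 9 pools, while the ranges of the poles overlapped. Its log2 fold change was -0.27 ± 0.068 (SE; 95% interval -0.41 to -0.13; edgeR quasi-likelihood, adjusted p = 0.00675), and the value with expected counts, which share out ambiguous fragments, kept the call. The C1q chains had log2 fold changes of -0.11 ± 0.061 for C1qa, -0.10 ± 0.056 for C1qb and -0.02 ± 0.063 for C1qc. Itgam, a chain of complement receptor 3, stood at 0.00 ± 0.048, C3 at 0.25 ± 0.22 and C3ar1 at 0.18 ± 0.12.

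Of the 11 homeostatic receptor and surface genes, Siglech and Gpr34 passed. Siglech encodes a sialic acid-binding lectin that marks microglia. Its level in SH replicates 1, 2, 4 and 5 was 15.0, 18.8, 17.8 and 14.9 CPM in dorsal DG and 20.02, 19.1, 16.2 and 16.5 CPM in ventral DG. In EE replicates 1 to 5 it was 16.9, 18.2, 16.02, 16.1 and 14.2 CPM in dorsal DG and 19.6, 20.4, 17.6, 18.9 and 18.9 CPM in ventral DG. Ventral was higher in 8 of 9 pools, all but SH replicate 4, and the ranges overlapped. Its log2 fold change was -0.17 ± 0.059 (SE; 95% interval -0.29 to -0.05; edgeR quasi-likelihood, adjusted p = 0.0314).

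Gpr34 encodes a lysophospholipid receptor of microglia. Its dorsal level was 17.7, 22.3, 19.98 and 17.9 CPM in SH and 18.5, 18.3, 19.5, 17.9 and 17.6 CPM in EE, in the same order of replicates. Its ventral level was 21.5, 23.0, 22.2 and 19.8 CPM in SH and 22.6, 23.7, 18.7, 19.1 and 19.5 CPM in EE. Ventral was higher in 8 of 9 pools, all but EE replicate 3. The log2 fold change was -0.16 ± 0.054 (SE; 95% interval -0.27 to -0.05; edgeR quasi-likelihood, adjusted p = 0.0399). Leaving out a pool ended the Gpr34 call in 7 of 9 fits and the Siglech call in 3 of 9, without EE replicate 1, 4 or 5. It ended none of the calls of Cd83, Tyrobp and C4b.

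**Figure D2:**
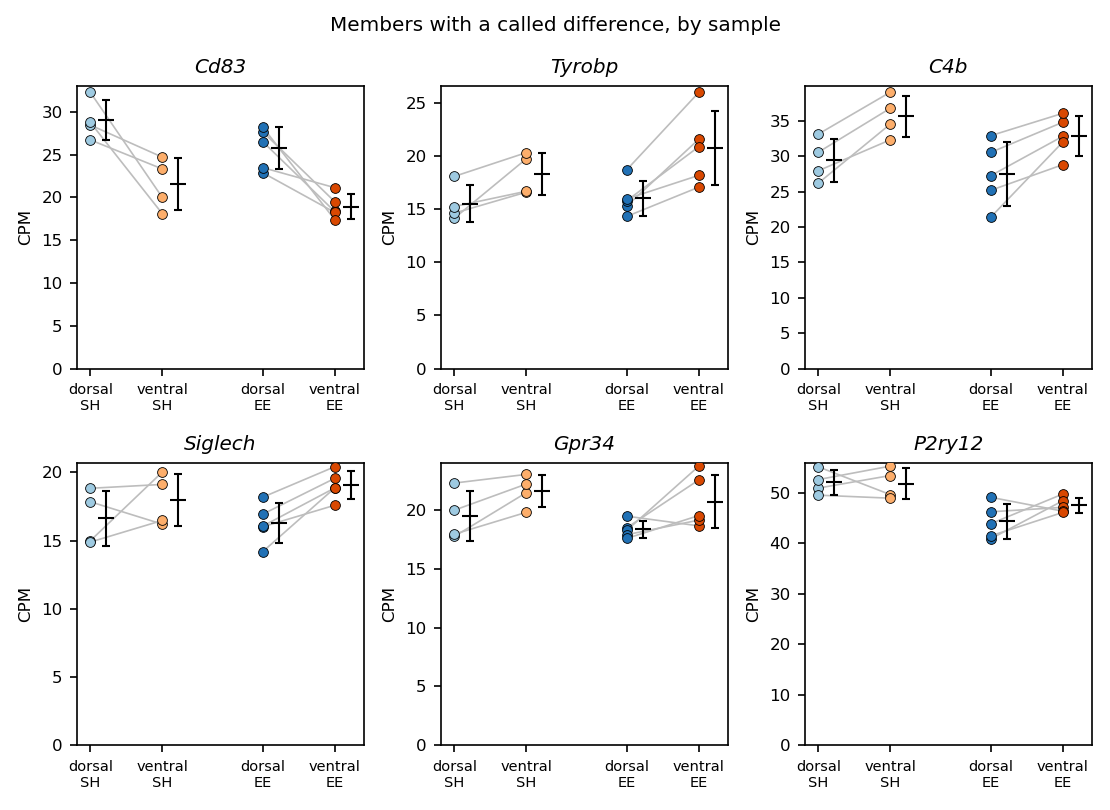
CPM of the 6 members with a called difference in each sample, with gray lines joining the poles of a pool and bars giving the mean and SD beside the points. Cd83 slopes down from dorsal to ventral in 9 of 9 pools, Tyrobp and C4b slope up in 9 of 9, and the dorsal EE points of P2ry12 lie below the dorsal SH points.

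Comparing the poles within each pool, with the pool as a block in the model, raised the number of members past FDR 0.05 to 9, against a background of 56.9% of all genes. The 4 added were all higher in ventral DG: Olfml3, a secreted protein of microglia (log2 fold change -0.12, adjusted p = 0.0231, edgeR), Aif1, the source of the IBA1 stain (-0.27, adjusted p = 0.0134, edgeR), C1qb (-0.10, adjusted p = 0.0490, edgeR) and Selplg, a ligand of selectins (-0.09, adjusted p = 0.0473, edgeR). Without the block their adjusted p in the same test was 0.0888, 0.0933, 0.149 and 0.159. Olfml3 was higher in ventral DG in 9 of 9 pools, Aif1 and Selplg in 8 of 9 and C1qb in 6 of 9. A test of the mean difference alone called 8 members (58.4% of all genes). A limit of 20% on the fold change, or 0.263 in log2 either way, left 3 (Cd83, Tyrobp and C4b), against 30.9% of all genes. Within SH alone 2 passed (Cd83 and C4b; 41.7% of all genes), and within EE alone 5 did (Cd83, Tyrobp, C4b, Siglech and Mrc1; 46.5% of all genes). Over all members, 4 pointed one way in 9 of 9 pools (Cd83, Tyrobp, C4b and Olfml3), which 40.4% of all tested genes did.

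**Figure D3:**
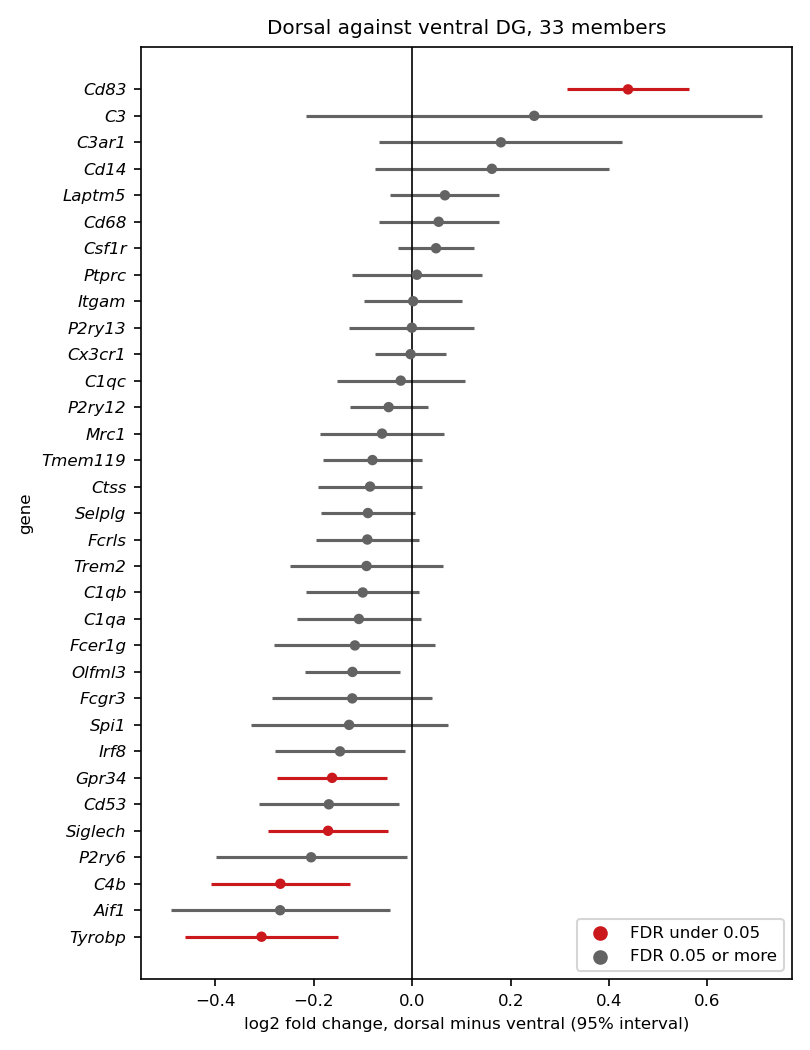
Log2 fold change, dorsal minus ventral, of the 33 members with 95% intervals, ordered by estimate, and with members past FDR 0.05 in red. Most points lie between -0.31 and 0 and most intervals reach 0, with Cd83 alone at 0.44.

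P2ry12, described with EE below, stood at -0.05 ± 0.038 between the poles (95% interval -0.13 to 0.03). The other members had estimates between -0.21 and 0.07. For 10 of these 14 the 95% interval lay within 0.263 of 0 on the log2 scale, against 35.9% of all genes. Cx3cr1, the fractalkine receptor, stood at -0.00 ± 0.035 (95% interval -0.08 to 0.07), and Csf1r, the receptor for CSF1 and IL34, at 0.05 ± 0.038 (-0.03 to 0.13). P2ry13, a further nucleotide receptor, stood at -0.00 ± 0.061, Tmem119 at -0.08 ± 0.048 and Fcrls, an Fc receptor-like scavenger receptor, at -0.09 ± 0.051. Among the lysosomal genes Ctss stood at -0.09 ± 0.051 and Cd68, a lysosomal membrane protein, at 0.05 ± 0.059. The leukocyte genes Cd53, Ptprc (CD45) and Laptm5 had values of -0.17 ± 0.069, 0.01 ± 0.064 and 0.07 ± 0.053. The transcription factor genes Irf8 and Spi1 stood at -0.15 ± 0.064 and -0.13 ± 0.097, P2ry6, a receptor for uridine nucleotides, at -0.21 ± 0.094, and Mrc1, which marks perivascular macrophages, at -0.06 ± 0.061. The interval of Cx3cr1 was the narrowest of these, and those of Irf8, Cd53 and P2ry6 did not reach 0 although the joint test did not pass.

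Markers of other cell types were read in the same test, in which 52.3% of all genes passed and 26.3% were higher in ventral DG. All 12 choroid plexus markers were higher in ventral DG, with a median log2 fold change of -3.29. Their summed level was 148 to 436 CPM in dorsal SH, 150.2 to 220.2 in dorsal EE, 648 to 1782 in ventral SH and 652 to 2195 in ventral EE, and none was at 0 in any of the 18 samples. Of 10 astrocyte markers 6 were higher in ventral DG and 0 in dorsal DG, with a median of -0.26. Their summed level was 7637 to 8986 CPM in dorsal SH, 7142 to 8768 in dorsal EE, 8337 to 9992 in ventral SH and 8150 to 11308 in ventral EE. Of 11 markers of border macrophages, the macrophages of meninges and vessels, 2 were higher in ventral DG (Cd163 and F13a1), and 3 of 7 fibroblast markers were. Of 10 oligodendrocyte markers 3 were higher in dorsal DG, and of 9 endothelial and 6 tested blood markers 0 passed. The part of these cells in the differences of Tyrobp, C4b, Siglech and Gpr34 was not tested.

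Further genes of the same systems are given beside the 52.3% of all tested genes that passed between the poles. Of 18 further complement genes tested out of 22 listed, 2 were higher in dorsal DG and 6 in ventral DG, with a median log2 fold change of -0.13, a share called below that of all genes. The largest were Srpx2, an inhibitor of C1q (-1.74 ± 0.23, adjusted p = 2.74e-06, edgeR), and C1ra, a protease of the C1 complex (-1.11 ± 0.14, adjusted p = 3.91e-06, edgeR), in ventral DG. In dorsal DG they were Csmd1, an inhibitor of complement in neurons (0.39 ± 0.038, adjusted p = 5.4e-08, edgeR), and Serping1, the C1 inhibitor (0.24 ± 0.075, adjusted p = 0.0177, edgeR). Of 9 genes tested for signals that neurons and glia send to microglia and their receptors, 3 were higher in dorsal DG, among them Cx3cl1, the ligand of Cx3cr1 (0.38 ± 0.046, adjusted p = 1.51e-06, edgeR), and Csf1 (0.35 ± 0.042, adjusted p = 1.38e-06, edgeR). Il34 was the 1 higher in ventral DG (-0.48 ± 0.058, adjusted p = 1.26e-06, edgeR). So the 2 ligands of Csf1r lay in opposite directions, while the receptor did not pass. At 4 of 9, this list too was called less often than the 52.3% of all genes.

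Of 21 further microglial genes, all tested, 1 was higher in dorsal DG, Rgs10 (0.20 ± 0.055, adjusted p = 0.00981, edgeR). Ltc4s, an enzyme of leukotriene synthesis (-0.55 ± 0.11, adjusted p = 0.000855, edgeR), and Crybb1 (-0.39 ± 0.11, adjusted p = 0.0180, edgeR) were higher in ventral DG. The median of the list was -0.04, and its 3 of 21 calls compare with 52.3% of all genes. Of 13 genes tested from those induced in microglia around plaques and lesions, 2 were higher in dorsal DG and 6 in ventral DG, with a median of -0.08, a share near that of all genes. The largest were Spp1 (-1.37 ± 0.14) and Timp2 (-1.34 ± 0.053) toward ventral DG, and Gpnmb (1.199 ± 0.068) and H2-D1 (0.25 ± 0.052) toward dorsal DG (adjusted p between 1.52e-14 and 0.00103, edgeR). Apoe, Timp2 and other genes of this list are also made by astrocytes or neurons, so its values are not those of microglia alone. Of 5 inflammatory genes (cytokines, chemokines, Toll-like receptors and an inflammasome gene) tested out of 11 listed, 0 passed.

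The second comparison asked what enriched housing did to these genes at each pole. In dorsal DG, P2ry12 alone among the 33 members passed FDR 0.05, and it was lower in EE; 0.716% of all tested genes passed. P2ry12 encodes the ADP receptor that directs microglial processes toward sites of nucleotide release. It lies at chromosome 3, 59216272 to 59262871 (minus strand), inside Med12l on the opposite strand, so the strand-specific counts used here keep the genes apart. Its level in dorsal SH replicates 1, 2, 4 and 5 was 50.9, 52.6, 55.1 and 49.5 CPM. In dorsal EE replicates 1 to 5 it was 43.8, 40.9, 46.2, 49.1 and 41.4 CPM. Every EE sample was below every SH sample, by the narrow gap between 49.1 and 49.5 CPM. The groups did not overlap for 3 of 33 members (P2ry12, P2ry6 and C3ar1) and for 3.99% of all tested genes. The left-out dorsal SH replicate 3, scaled with all 20 samples, was at 2.31 CPM for P2ry6 and 2.44 for C3ar1, within their EE ranges. For P2ry12 it was at 51.8 CPM, above the EE range.

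The log2 fold change of P2ry12 was -0.23 ± 0.054 (SE; 95% interval -0.34 to -0.12; edgeR quasi-likelihood, adjusted p = 0.0441), a change of -14.9%, smaller than 20%. With the replicate number as a block it was -0.24 (adjusted p = 0.0155, edgeR) and again the only call, while 1.43% of all genes passed. Under a joint limit of FDR 0.05 and a 20% change no member passed, against 0.634% of all genes. The call was lost in 8 of 9 fits that left out a pool, with adjusted p up to 0.223 without SH replicate 4 (edgeR), and held without EE replicate 4. It was also lost with unstranded counts, expected counts and a fit of dorsal samples alone (adjusted p = 0.0518, 0.0681 and 0.0697, edgeR). Its ventral level was 53.4, 55.2, 49.6 and 48.9 CPM in SH replicates 1, 2, 4 and 5, and in EE replicates 1 to 5 it was 49.7, 48.4, 47.1, 46.3 and 46.1 CPM. These ranges overlapped, and the log2 fold change was -0.12 ± 0.054 (adjusted p = 0.599, edgeR). The test of the difference between the poles gave -0.11 ± 0.077 (adjusted p = 1.000, edgeR), so a difference in the EE effect on P2ry12 was not shown.

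The next smallest p values in dorsal DG were those of P2ry6 and Olfml3. P2ry6 stood at 1.97, 1.89, 1.96 and 1.64 CPM in the SH samples. The EE samples had 1.99, 2.86, 2.81, 2.12 and 2.20 CPM, all higher, by the narrow gap between 1.97 and 1.99 CPM. Its counts were 44 to 73 fragments a sample, and the log2 fold change was 0.35 ± 0.14 (adjusted p = 0.382, edgeR). Olfml3 was at 25.2 ± 1.92 CPM (SD, n = 4) in SH and 28.2 ± 2.33 (n = 5) in EE, with 0.16 ± 0.066 (adjusted p = 0.441, edgeR). At an unadjusted p under 0.05, 7 of 33 members were found in dorsal DG, against 8.81% of all genes. They were P2ry12, Itgam and Cd83 with lower levels in EE, and P2ry6, Olfml3, Cd14 and Fcgr3 with higher ones. The P2Y receptor genes thus had estimates of both signs, with P2ry13 at 12.5 ± 1.26 CPM (n = 5) in EE and 13.5 ± 1.55 (n = 4) in SH.

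In ventral DG, 0 of 33 members passed FDR 0.05 by edgeR, as they did by DESeq2, and 0.246% of all genes passed by edgeR. At an unadjusted p under 0.05 there were 5 members (C1qb, P2ry12, Cd83, Olfml3 and Cd14), against 7.58% of all genes. C1qb stood at 47.0, 43.1, 41.5 and 38.8 CPM in the SH samples, and the EE samples had 50.8, 57.8, 48.0, 46.9 and 47.3 CPM. Only SH replicate 1 reached the EE range, and the number of members whose ventral SH and EE samples did not overlap was 0 of 33, against 2.45% of all genes. C1qb had a log2 fold change of 0.23 ± 0.078 (95% interval 0.07 to 0.40; adjusted p = 0.363, edgeR). For Cd83 it was -0.19 ± 0.087 (adjusted p = 0.645, edgeR). The estimate was above 0 for 25 of 33 members in ventral DG and for 17 of 33 in dorsal DG, with medians of 0.08 and 0.01. Over all 17040 genes tested, 8508 were above 0 in ventral and 8280 in dorsal DG, with medians of -0.00 in both. These members share samples and largely share cells, so the counts are a description.

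**Figure D4:**
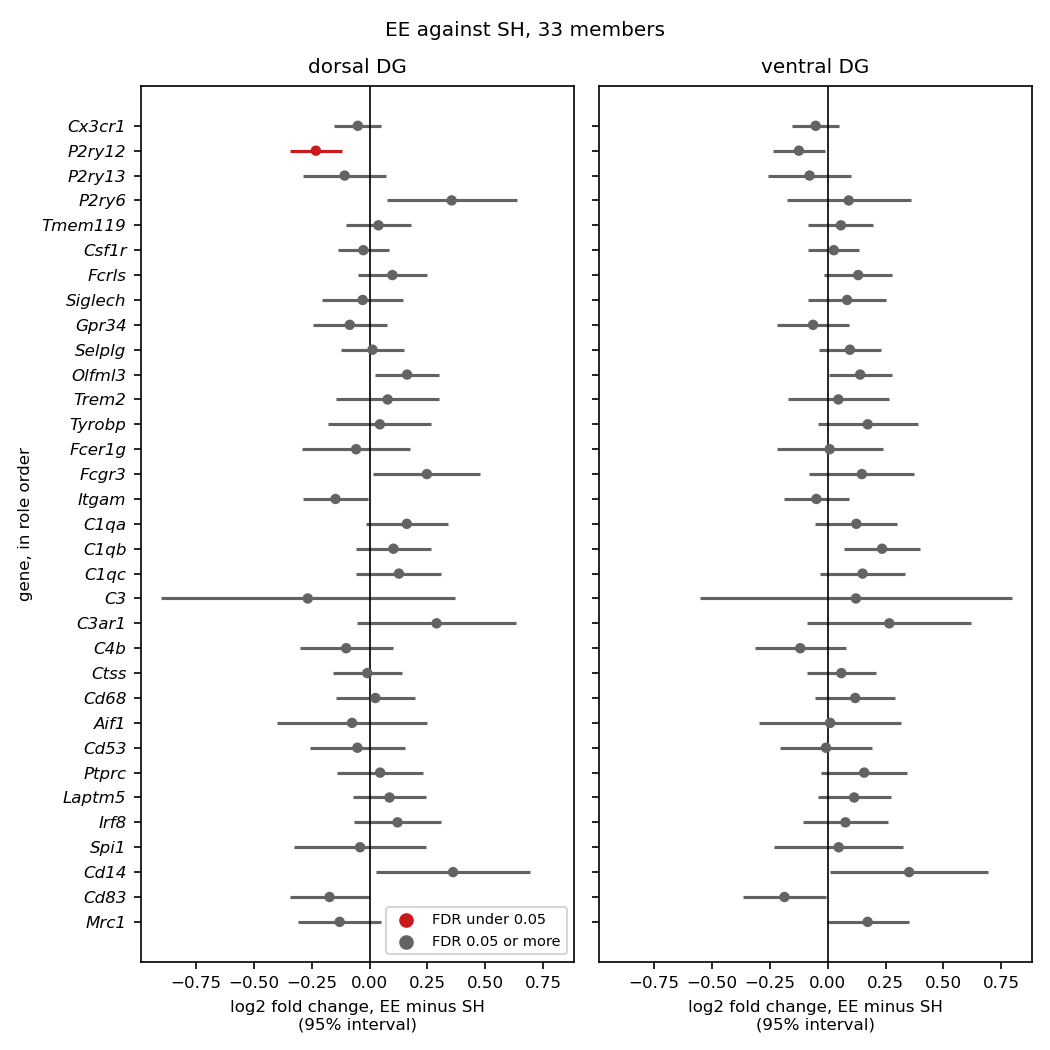
Log2 fold change, EE minus SH, of the 33 members in dorsal (left) and ventral (right) DG with 95% intervals, with members past FDR 0.05 in red. P2ry12 in dorsal DG, at -0.23, is the only red point, and in both panels most intervals include 0.

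The EE effects at both poles were then set against each other, and their difference passed for 0 of 33 members by edgeR and by DESeq2, and for 0.00587% of all genes by edgeR. At an unadjusted p under 0.05 there was 1 member, Mrc1, against 3.25% of all genes. Mrc1 encodes the mannose receptor. It was at 7.92, 7.32, 7.05 and 6.89 CPM in dorsal SH and 6.19, 7.91, 6.63, 6.04 and 6.64 in dorsal EE. In ventral DG it was at 6.99, 7.14, 6.16 and 7.12 CPM in SH and 8.46, 6.88, 8.35, 7.32 and 7.59 in EE. The estimate of EE was thus below 0 in dorsal and above 0 in ventral DG, and the difference was -0.30 ± 0.12 (unadjusted p = 0.0213, adjusted p = 1.000, edgeR). P2ry6, the member with the next smallest p, had a difference of 0.26 ± 0.19 (adjusted p = 1.000, edgeR). For 7 of 33 members the 95% interval of the difference lay within 0.263 of 0 on the log2 scale, against 36.3% of all genes. That of the EE effect did for 12 members in dorsal and 13 in ventral DG, against 53.7% and 53.9% of all genes. For the rest a change of that size was not excluded by these intervals.

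Among the other lists, Gpnmb, a gene of lesion-associated microglia that other cells also use, was higher in dorsal EE (0.61 ± 0.088, adjusted p = 0.000643, edgeR), and Tgfbr1, a receptor for TGF-beta, a factor that microglia need, was lower (-0.21 ± 0.047, adjusted p = 0.0305, edgeR). These were 1 of 13 and 1 of 9 genes tested, against 0.716% of all tested genes in dorsal DG. None of the 18 further complement genes, 21 further microglial genes and 5 inflammatory genes passed in either direction at either pole by edgeR, and none of the choroid plexus, astrocyte, oligodendrocyte, endothelial, fibroblast, border macrophage or blood markers did. In ventral DG no gene of any list passed, and 0.246% of all tested genes did. With shares this small, short lists without a call tell little.

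The summed level of the members spread further among the pools of a group than the group means lay apart. The 33 members summed to 777 ± 58.7 CPM (SD, n = 4) in dorsal SH, 777 ± 50.5 (n = 5) in dorsal EE, and at the ventral pole to 791 ± 41.8 (n = 4) with SH and 817 ± 43.6 (n = 5) with EE. Within groups the sum ran from 714 to 846 CPM in dorsal SH and from 727 to 858 CPM in dorsal EE. Replicate 2 held the highest level of a group in 70 of the 132 combinations of member and group, and replicate 5 the lowest in 54. In deposited TPM replicate 2 was instead the lowest in 93, and in TPM centred on the median gene of each sample it was the highest in 68. These ranks were not counted over all tested genes, so whether they are particular to the members was not tested. In dorsal EE replicate 2 alone was highest for 23 of 33 members, and in dorsal SH for 20. P2ry12 went against this in dorsal EE, where replicate 2 had the lowest level, 40.9 CPM. SH and EE replicates of one number are different pools, and the labels do not say what a number shares. The percent of fragments assigned to no gene was 32.6 to 40.9 over the samples and was highest in replicate 2 in each of the 4 groups. Its part in these levels was not tested.

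**Figure D5:**
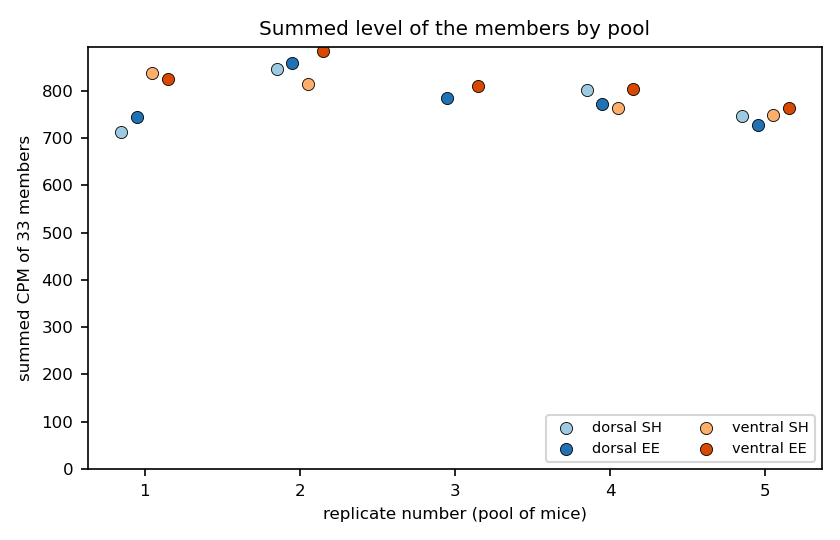
Summed CPM of the 33 members in each sample by replicate number, with colors for the 4 groups and the vertical axis starting at 0. Replicate 2 is highest in 3 of the 4 groups, and the groups overlap, at 714 to 884 CPM in all.

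The C1q chains were measured at similar levels per length. Across 18 samples the ratio of C1qa to C1qb TPM ran from 1.205 to 1.39 with a median of 1.305, that of C1qa to C1qc from 1.36 to 1.68 with a median of 1.55, and that of C1qb to C1qc from 1.07 to 1.39 with a median of 1.19. C1qa to C1qb was 1.35 ± 0.0344 (SD, n = 4) for ventral samples with SH and 1.25 ± 0.0402 (n = 5) with EE, and 1.28 ± 0.0507 and 1.32 ± 0.0398 in dorsal SH and EE. These ratios were not tested. The genes lie in a row on chromosome 4, from 136880129 to 136898803 (minus strand).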

How the data were processed

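Whole-tissue RNA was sequenced in 20 samples, of which 18 were used. Replicate 3 of SH was left out at both poles, taken to be the SH sample that the methods exclude without a number; results with it are among the alternatives. The bisulfite and TAB samples of the series were not analysed here. Per the labels, reads were trimmed with Trim Galore 0.4.0, aligned to mm10 with STAR 2.5.1b and quantified with RSEM 1.2.30. The deposited count of fragments per gene is not normalized. It was taken on the reverse strand, the orientation of the stranded total RNA kit. The expected count deposited by the authors, which shares out ambiguous fragments, was rounded and used as an alternative. The TPM values deposited by the authors are scaled for length and library total, and were used for levels between genes.

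The count filter kept genes above 10 fragments in 2 or more samples. They were tested with edgeR 4.0.16 (TMM scaling, quasi-likelihood F test, all groups in one model) in R 4.3.3, and p values were adjusted by Benjamini-Hochberg over all genes. The call threshold was FDR 0.05. Standard errors were derived from the fold change and its F statistic, and 95% intervals from them. P values of the main fit measure the spread between the samples of a group, with the poles of a pool counted as separate samples. The tests were tried on simulated data with known changes, with every sample drawn independently. That trial held no pairing of samples and cannot show how pairing affects the tests. No replicates were duplicates, since counts of any pair in a group differed by at least 2.95 times the sampling noise (chi-square per degree of freedom). Symbols and positions came from the Gencode annotation of GRCm38.

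Dorsal and ventral samples came from the same mice, and those of one number in a housing were taken as one pool. Their deviations from the group means correlated at -0.134 to 0.310 over 9 pairs, with a mean of 0.132. Over 32 pairs of unlike numbers the mean was -0.036 and the highest 0.313. The counts of pools and the pool block rest on this matching by number. Same-numbered SH and EE samples deviated together in all 8 pairs, with correlations of 0.106 to 0.276 (mean -0.05 over 32 pairs of unlike numbers). The main fit, which gave the reported calls and intervals, held only the group means and used neither pairing. Pool or replicate number was the block in an alternative fit. Other alternatives were all 20 samples, size factors of DESeq2, DESeq2 1.42.0, other count filters, a 20% fold limit, unstranded and expected counts, other region tests, separate fits per region and leaving out each pool. The members and the other gene lists were chosen with earlier results of these data known. All 33 members are named. Statistics are given for those past FDR 0.05 and, for EE, the 3 with the smallest p. Others are named with estimates, and of the other lists the largest called changes. One gene of the further microglial genes is not reported here and is left out of that list's counts. TPM was also compared between groups as log2(TPM + 0.1), as deposited and centred on the median gene of each sample.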

Additional observations from a re-analysis of the deposited data

Results flagged for a closer look

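In 8 of the 132 combinations of member and group, 1 sample lay far from the others of its group (Dixon's test at 95%), where chance gives about 1 in 20. Replicate 2 of dorsal EE was high for Fcgr3, at 15.7 CPM with the next at 12.7, and for Irf8, at 5.47 with the next at 4.97. Replicate 4 of ventral SH was low for Csf1r (102 CPM, next 107), Spi1 (2.76, next 3.03) and Mrc1 (6.16, next 6.99). Replicate 4 of ventral EE was high for Irf8 (6.22 CPM, next 5.30), and replicate 4 of dorsal EE was low for Cd14 (1.47 CPM, next 2.32). Replicate 3 of ventral EE was high for C3, at 1.21 CPM with the next at 0.544, at the lowest counts of any member.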

How the results depend on the processing

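The number of members called between the poles was 5. It was 9 with the replicate block (pools), 8 with a test of the mean difference alone, 3 with the 20% fold limit and 2 within SH alone, and it ran from 3 to 6 over the fits that left out a pool. The member called for EE in dorsal DG (1) was lost, giving 0, with unstranded counts (adjusted p = 0.0518, edgeR), expected counts (0.0681), a separate fit of the dorsal samples (0.0697) and the 20% fold limit, and the count ran from 0 to 1 when a pool was left out. The other settings kept these counts within 1.5 times, and those for EE in ventral DG and for the difference between EE effects stayed at 0 in every setting run, the replicate block included. The TPM scalings were not among these settings. Of 244 values of 14 named gene results under the fitted settings, 0 reversed and 22 lost the call. These were 11 of 18 for P2ry12 in dorsal DG, and between the poles 8 of 17 for Gpr34 and 3 of 17 for Siglech. Cd83, Tyrobp and C4b kept the call between the poles in all 17 settings each. Under deposited TPM, where no test was made, Tyrobp was at -0.11, C4b at -0.05 and Cd83 at 0.61. Siglech and Gpr34 changed sign there, to 0.02 each. The other named results had no call to lose. Causes were not tested, apart from the construction of a stricter limit or fewer samples. Depth limits the scarce members: with 8 to 34 fragments a sample, C3 had a standard error of 0.22 on the log2 scale for the difference between poles. The scaling by deposited TPM was chosen after seeing the data. The median of all genes then moved to 0.16 between the poles, -0.23 for EE in dorsal DG and -0.15 for EE in ventral DG, and 3 members were below 0 between the poles and 3 and 7 above 0 for EE. After centring on the median gene (10401 genes above 1 TPM in every sample), these were 24, 15 and 25, against 24, 17 and 25 by edgeR.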
